A study of Mus musculus with 6 samples.

Results

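The retinoblastoma proteins and D-type cyclins are the molecular gate between the G1 and S phases of the cell cycle. Rows of the deposited expression table were chosen by gene name for 8 genes: the pocket proteins Rb1, Rbl1 and Rbl2, the D-type cyclins Ccnd1, Ccnd2 and Ccnd3, and their kinases Cdk4 and Cdk6. The 8 genes took 10 of the 44519 rows in the table, since 3 rows carry the name Rb1.

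RNA was sequenced from GFP-positive horizontal basal cells, the reserve stem cells of the mouse olfactory neuroepithelium, which had been sorted by flow cytometry. The TNF group (replicates 1, 3 and 4) came from mice with 3 transgenes, Krt17-EGFP, Cyp2g1-rtTA and TRE-TNF, given doxycycline for 6 weeks, and the control group (replicates 1, 2 and 4) came from Krt17-EGFP mice labelled as given no doxycycline. Krt17-EGFP is the reporter used for the sort and is carried by both groups. The Cyp2g1 promoter is active in sustentacular cells, the supporting cells of this epithelium, so the cytokine TNF is induced from a neighbouring cell type. The rtTA and TRE-TNF transgenes, doxycycline and TNF differ together between the groups and cannot be told apart. No age or sex is given by the labels. They do not say whether each library came from a separate animal, so p-values measure the spread between these samples, which may be technical.

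In a quiescent cell, pocket proteins bind E2F transcription factors and hold E2F target genes down. Mitogens raise D-type cyclins, which activate Cdk4 and Cdk6. These kinases phosphorylate the pocket proteins, and E2F is released to drive the genes of S phase. Rbl1 (p107) and Rbl2 (p130) also assemble with E2F4 and the MuvB core into the DREAM complex, a repressor of cell cycle genes in resting cells. Horizontal basal cells are mostly quiescent in the intact epithelium and divide after injury.

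The promoter windows of Rbl1, the member with an E2F match, and Cdk4, the member with the most E-boxes, are shown first, because pocket proteins act through E2F sites and Cdk4 is a known target of the E-box factor Myc. RefSeq promoters (assembly GRCm38.p6, 250 bases before to 50 after the annotated start) matched 5 of the 8 members: Rbl1, Rbl2, Ccnd3, Cdk4 and Cdk6. Both strands were searched for an E2F motif, TTTNGCGC, and for the E-box CACGTG, which reads the same on both strands. The capitals mark the E2F match in Rbl1 (chr2:157204485-157204784, minus strand) and the E-boxes in Cdk4 (chr10:127063285-127063584, plus strand).
Rbl1: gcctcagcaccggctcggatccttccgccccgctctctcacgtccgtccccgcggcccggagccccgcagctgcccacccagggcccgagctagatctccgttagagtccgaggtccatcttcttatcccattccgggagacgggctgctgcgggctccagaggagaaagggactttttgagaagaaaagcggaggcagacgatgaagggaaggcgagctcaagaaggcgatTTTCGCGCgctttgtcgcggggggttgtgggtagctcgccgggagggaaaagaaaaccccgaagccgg
Cdk4: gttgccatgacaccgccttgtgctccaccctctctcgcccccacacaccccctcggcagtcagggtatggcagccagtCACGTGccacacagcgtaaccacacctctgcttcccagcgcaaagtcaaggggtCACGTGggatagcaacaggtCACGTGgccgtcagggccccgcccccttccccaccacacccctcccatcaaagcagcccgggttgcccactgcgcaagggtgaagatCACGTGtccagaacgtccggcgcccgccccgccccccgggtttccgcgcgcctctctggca
The E2F motif was present in 452 of 32851 promoter windows of this length (1.38%). In Rbl1 its first base lay at position -18 from the start. The E-box was present in 2349 windows (7.15%), and only 8 windows (0.0244%) held 4 or more. The 4 E-boxes of Cdk4 began at positions -172, -118, -98 and -11, and the single E-box of Cdk6 began at -220. The Rbl2 window and both Ccnd3 windows held neither motif, and the 2 motifs did not overlap anywhere in these windows.

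The libraries differed in more than the 8 members. Values are FPKM, fragments scaled by transcript length and by library size, as deposited. They are per transcript length, so levels of different genes can be set side by side. The table holds no fragment totals. Judged from the steps between low values, 1 fragment was worth 0.874 to 1.08 times its value in control replicate 1. This rests on the commonest ratio between low values, at which 5.77% to 10.4% of the rows used lay, so it is a rough estimate. TNF libraries had 13242 to 13542 rows at 1 FPKM or more, and control libraries 15014 to 15202. Pearson correlations of log2 values within the groups were 0.909 to 0.983 among TNF libraries and 0.922 to 0.972 among control libraries, with TNF replicate 1 and control replicate 4 farthest from their groups. All 11 genes of a horizontal basal cell list were detected in every library. They summed to 4646 to 7410 FPKM in TNF libraries and 759 to 3082 FPKM in control libraries. Trp63, a transcription factor of these cells, was at 79.7 to 117 FPKM in TNF libraries and 68.6 to 86.1 FPKM in control libraries. Neuronal RNA was also present, and in each control library the immature neuron markers alone summed to more than the basal cell genes, so the control libraries were not basal cell RNA alone. The 7 tested immature neuron markers summed to 262 to 407 FPKM in TNF libraries and 3723 to 8016 FPKM in control libraries, and all 7 fell. Dcx was at 0 in TNF replicates 3 and 4 and reached the 1 FPKM needed for testing only in control libraries. The 8 mature neuron markers summed to 35.1 to 899 FPKM in TNF libraries and 2605 to 5135 FPKM in control libraries. All 8 fell. Over all tested rows, 27.2% fell. The TNF libraries were not basal cell RNA alone either. Fibroblast markers summed to 41.5, 1056 and 1522 FPKM in TNF replicates 1, 3 and 4, against 525, 445 and 135 FPKM in control replicates 1, 2 and 4. In bulk RNA, fewer cells of a type and less RNA per cell cannot be told apart.

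Of the 8 members, Rb1 was lower in TNF cells and no member was higher at an adjusted p below 0.05. The test was limma on log2(FPKM + 1), with Benjamini-Hochberg adjustment over the 15037 rows that reached 1 FPKM in at least 3 libraries. All 8 members passed that filter. Over all tested rows, 38.0% were called, 10.9% higher and 27.2% lower in TNF cells. The groups did not overlap for 4 of the 8 members (Rb1, Rbl1, Ccnd2 and Ccnd3), against 53.0% of all tested rows, so these shares of the members were near or below the background. The median log2 difference of all tested rows was −0.22, with 90% of rows between −2.64 and 1.52. The unadjusted limma p of Rbl1, Ccnd2 and Ccnd3 was 0.0319, 0.0269 and 0.0428. Their adjusted p was 0.0747, 0.0654 and 0.0932, so none of them was called. The share of all tested rows with an unadjusted p below 0.05 is not given here, so these p-values say nothing of the members as a set.

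**Figure D1:**
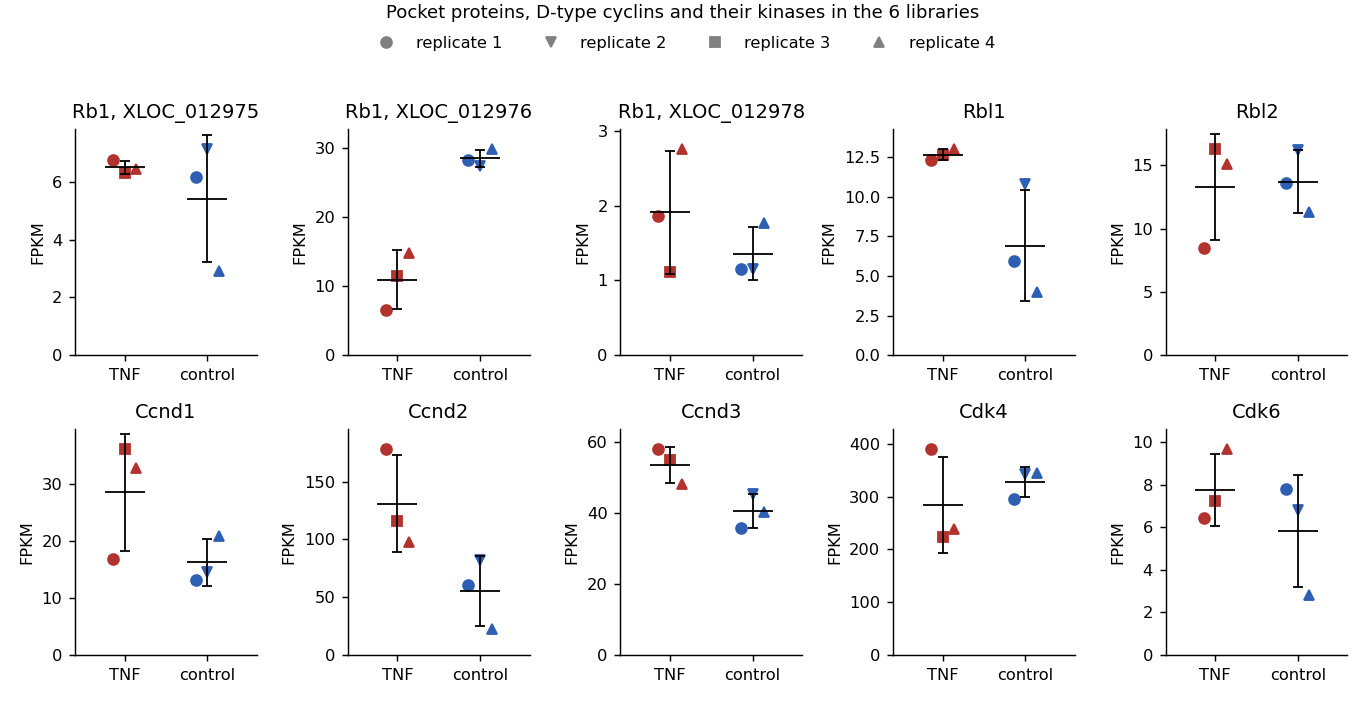
FPKM of the 10 rows of the 8 members in the 3 TNF and the 3 control libraries. Points are libraries and black bars the mean ± SD. Each panel has its own axis from 0. TNF libraries lie below all control libraries for the Rb1 row of highest level and above all of them for Rbl1, Ccnd2 and Ccnd3. The groups overlap for the other Rb1 rows and for Rbl2, Ccnd1, Cdk4 and Cdk6.

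Rb1, the founding pocket protein and repressor of E2F, had 6.50, 11.5 and 14.9 FPKM in TNF replicates 1, 3 and 4, against 28.4, 27.4 and 29.8 FPKM in control replicates 1, 2 and 4. Every TNF library was below every control library, and TNF libraries spread more. The means were 11.0 ± 4.22 FPKM in TNF cells and 28.5 ± 1.21 FPKM in control cells (SD, n = 3 each), 2.60 times lower in TNF cells. The log2 difference was −1.37 ± 0.29 (SE; 95% confidence interval −2.06 to −0.68; limma adjusted p = 0.0104). The call held with any 1 library left out, at differences of −1.61 to −1.07 and adjusted p of 0.00489 to 0.0420. It was lost in a fit blocked on replicate number (−1.46, adjusted p = 0.0615), although nothing says that these numbers pair the libraries. Within the TNF group Rb1 was lowest in replicate 1, the TNF library with the highest mature neuron sum (899 FPKM, against 42.3 and 35.1 FPKM in TNF replicates 3 and 4). TNF replicate 1 also had the lowest fibroblast (41.5 FPKM) and endothelial (0.726 FPKM) marker sums of the TNF libraries. Among control libraries, replicate 4 had the highest Rb1 together with the highest mature neuron sum (5135 FPKM) and the lowest fibroblast sum (135 FPKM). Without TNF replicate 1 and control replicate 4 together, the difference was −1.04 (adjusted p = 0.00484). The part of the cells behind the neuronal, fibroblast and endothelial markers in the difference between groups was not tested.

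These values come from the Rb1 row of highest level, and the other 2 rows of that name did not move with it. The second row had 6.75, 6.32 and 6.46 FPKM in TNF replicates 1, 3 and 4, against 6.19, 7.13 and 2.93 FPKM in control replicates 1, 2 and 4 (log2 difference 0.29 ± 0.31, adjusted p = 0.489). The third had 1.87, 1.11 and 2.75 FPKM in TNF replicates 1, 3 and 4, against 1.15, 1.15 and 1.76 FPKM in control replicates 1, 2 and 4 (log2 difference 0.28 ± 0.26, adjusted p = 0.442). Both pairs of groups overlapped. In the GENCODE M21 annotation of GRCm38, Rb1 lies on the minus strand of chromosome 14, from 73183673 to 73325822, and its transcripts fall into 3 groups that share no exon. The group with the coding transcript has 5196 exonic bases, of which 105 (2.02%) lie under exons of other genes. The other 2 groups have 411 and 408 exonic bases, and 93.2% and 100% of these lie under exons of other genes on the opposite strand, Rcbtb2 and Lpar6. The table does not say which row is which group. Row numbers follow start order on a strand for 37951 of 38057 neighbouring pairs of rows (99.7%), and by that order the row that fell, the middle of the 3, would be the coding group.

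Rbl1, the pocket protein p107, which is itself an E2F target, had 12.3, 12.7 and 13.0 FPKM in TNF replicates 1, 3 and 4, against 5.97, 10.8 and 4.01 FPKM in control replicates 1, 2 and 4. All TNF libraries lay above all control libraries, and the TNF libraries were close to each other while control replicate 2 stood well above the other controls. The means were 12.7 ± 0.339 FPKM in TNF cells and 6.92 ± 3.49 FPKM in control cells (SD, n = 3 each). The log2 difference of 0.88 ± 0.32 (95% confidence interval 0.10 to 1.65) had an adjusted p of 0.0747, above the threshold. Without control replicate 2 it was 1.21 (adjusted p = 0.0165). The gene lies on the minus strand of chromosome 2, from 157145893 to 157204534, and shares no exonic base with another gene. Its promoter is the window with the E2F match printed above.

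Rbl2, the pocket protein p130 of resting cells, had 8.47, 16.3 and 15.1 FPKM in TNF replicates 1, 3 and 4, against 13.6, 16.2 and 11.3 FPKM in control replicates 1, 2 and 4. The groups overlapped fully, with TNF replicate 1 the lowest and TNF replicate 3 the highest library. The log2 difference was −0.08 ± 0.28, with an interval of −0.75 to 0.60 (adjusted p = 0.856). Of its exonic bases, 21.0% lie under exons of other genes, among them Aktip on the opposite strand, which fell by 1.05 on the log2 scale (adjusted p = 0.0157). No source used here says whether the counting used strand, so reads of the overlapping stretches cannot be assigned.

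As a share of the summed pocket protein FPKM in each library, Rb1 was the largest of the 3 genes in every control library and in no TNF library. The order of the 3 genes varied among the TNF libraries, and in TNF replicate 4 Rb1 (34.6%) was close to Rbl2 (35.2%). Rb1 made up 29.0 ± 5.42% of the sum in TNF cells and 58.6 ± 7.89% in control cells (SD, n = 3 each). Rbl1 made up 35.6 ± 8.30% in TNF cells and 13.7 ± 5.57% in control cells, and Rbl2 35.5 ± 4.59% in TNF cells and 27.7 ± 2.47% in control cells. For none of the 3 shares did the groups overlap, but no such count over other rows stands beside this. The Rbl2 level itself overlapped between the groups (log2 difference −0.08), so the shares are not 3 separate results. The sum itself was 27.3 to 43.0 FPKM in TNF libraries and 45.1 to 54.5 FPKM in control libraries. These shares are free of any scaling between libraries and are given as a description, without a test; each is bound to the others, since they add up to the whole.

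**Figure D2:**
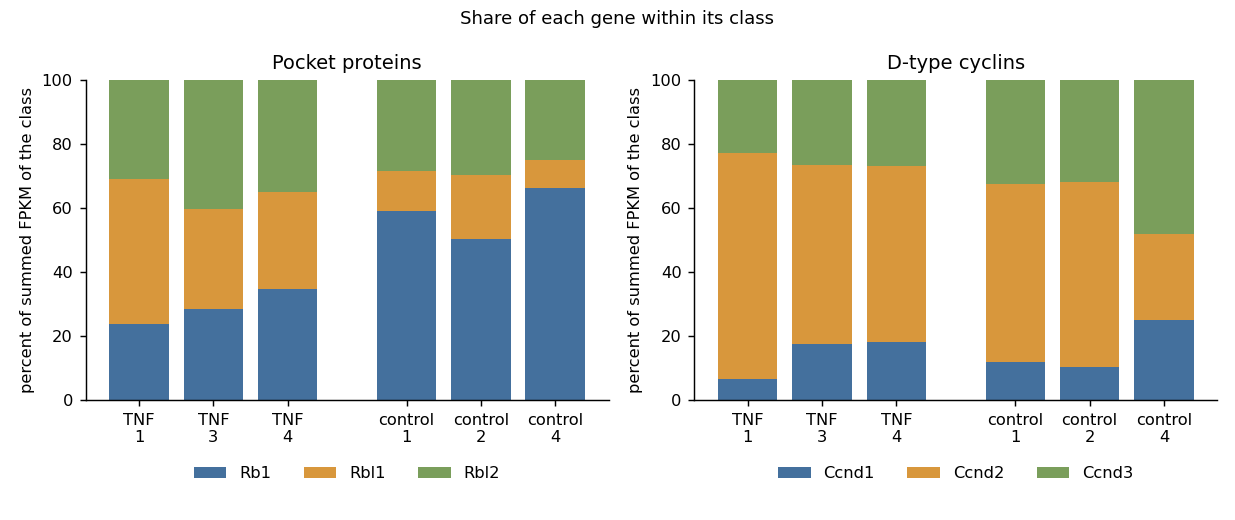
Share (%) of the summed FPKM of the class taken by each pocket protein and each D-type cyclin in each library. TNF libraries stand left of control libraries. Rb1 takes 23.8% to 34.6% of the pocket protein sum in TNF libraries and 50.4% to 66.1% in control libraries.

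Among the D-type cyclins, Ccnd2 was the most abundant in every TNF library and in control replicates 1 and 2, but not control replicate 4. It had 178, 116 and 98.2 FPKM in TNF replicates 1, 3 and 4, against 60.7, 82.4 and 22.6 FPKM in control replicates 1, 2 and 4. All TNF libraries lay above all control libraries, and both groups were widely spread. The means were 131 ± 42.0 FPKM in TNF cells and 55.2 ± 30.3 FPKM in control cells (SD, n = 3 each), and the log2 difference of 1.37 ± 0.48 (95% confidence interval 0.21 to 2.52) missed the threshold (adjusted p = 0.0654). Its size was that of the Rb1 difference, and its standard error was larger. Without control replicate 2 the difference was 1.74 (adjusted p = 0.0426). Without TNF replicate 1 and control replicate 4 together it was 0.59 (adjusted p = 0.0431).

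Ccnd2 and the summed FPKM of the horizontal basal cell genes put the 6 libraries in the same order. That order is not particular to Ccnd2: Slc25a13 and Trim29 had it as well, and how many other rows share it was not counted. The 11 basal cell genes summed to 7410, 4847 and 4646 FPKM in TNF replicates 1, 3 and 4, against 2472, 3082 and 759 FPKM in control replicates 1, 2 and 4. Control replicate 4 was lowest and TNF replicate 1 highest in both measures. Most of that sum comes from 1 row that merges the keratin genes Krt14 and Krt17, and the order did not hold for the list's median log2 level, which was 4.92 in control replicate 1 and 4.76 in control replicate 2. Of the 11 basal cell genes, 5 rose and none fell, against 10.9% and 27.2% of all tested rows. None of the 11 was at 0 in any library. After scaling the libraries to the median of that list, the Ccnd2 difference was 0.15 ± 0.36 on the log2 scale (adjusted p = 0.717). The same scaling moved the median difference of all tested rows to −1.31. It lowered rows in general, so it says nothing of Ccnd2 in particular. Ccnd2 lies on the minus strand of chromosome 6, from 127125162 to 127152193, and 7.86% of its exonic bases lie under exons of other genes.

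**Figure D3:**
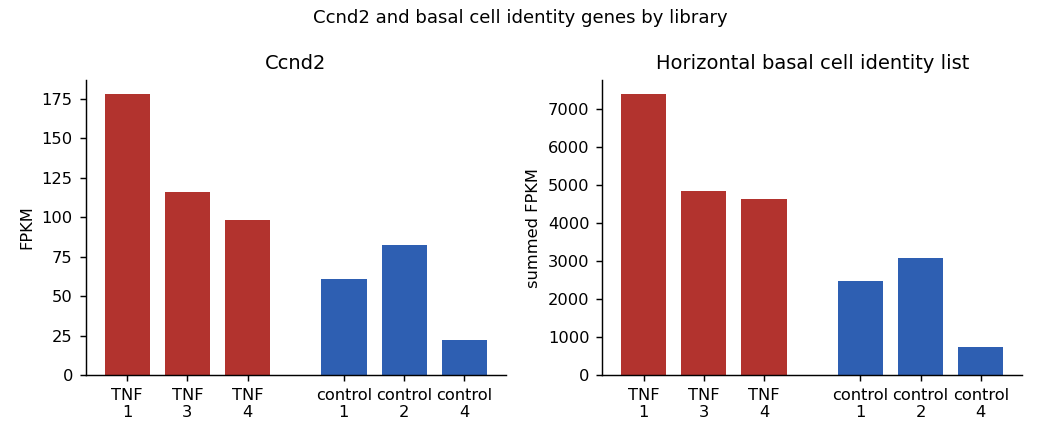
Ccnd2 FPKM (left) and the summed FPKM of the 11 horizontal basal cell genes (right). Bars are the 6 libraries, coloured by group. By level, both panels put the libraries in the same order, from control replicate 4 (22.6 FPKM Ccnd2) to TNF replicate 1 (178 FPKM Ccnd2).

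Ccnd1, a cyclin that mitogens raise in many epithelia, had 16.9, 36.1 and 32.8 FPKM in TNF replicates 1, 3 and 4, against 13.2, 14.6 and 20.9 FPKM in control replicates 1, 2 and 4. TNF replicate 1 lay below control replicate 4, so the groups overlapped, and the other TNF libraries were above all controls. The log2 difference was 0.73 ± 0.33, with an interval of −0.05 to 1.51 (adjusted p = 0.122). Without TNF replicate 1 it was 1.06 (adjusted p = 0.0130). The TNF libraries with high Ccnd1 were also those with high fibroblast and endothelial sums. Among control libraries, replicate 4 had the highest Ccnd1 together with the lowest fibroblast sum and the highest endothelial sum. The 6 fibroblast markers summed to 41.5, 1056 and 1522 FPKM in TNF replicates 1, 3 and 4, against 525, 445 and 135 FPKM in control replicates 1, 2 and 4, and none of the 5 tested fell or rose. The 6 endothelial markers summed to 0.726, 56.1 and 92.0 FPKM in TNF replicates 1, 3 and 4, against 10.6, 11.8 and 13.4 FPKM in control replicates 1, 2 and 4. None of the 4 tested endothelial markers passed, and Kdr was at 0 in TNF replicate 1. Their part in the Ccnd1 values was not tested. Ccnd1 lies on the minus strand of chromosome 7, from 144929931 to 144939925, and 23.4% of its exonic bases lie under exons of a gene on the opposite strand, Oraov1, whose log2 difference was −0.58 (adjusted p = 0.112).

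Ccnd3, the D-type cyclin widespread in differentiated and blood-forming cells, varied least of the 3. It had 57.9, 54.7 and 48.0 FPKM in TNF replicates 1, 3 and 4, against 35.7, 45.3 and 40.2 FPKM in control replicates 1, 2 and 4. The groups did not overlap, with TNF replicate 4 only just above control replicate 2. The log2 difference was 0.40 ± 0.16, with an interval of 0.02 to 0.78 (adjusted p = 0.0932). It lies on the plus strand of chromosome 17, from 47505051 to 47599691, and 4.11% of its exonic bases lie under exons of Bysl.

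The 3 D-type cyclins together summed to 179 to 253 FPKM in TNF libraries and 83.8 to 142 FPKM in control libraries, with no overlap. Within the sum, Ccnd2 made up 60.5 ± 8.67% in TNF cells and 46.7 ± 17.2% in control cells, and Ccnd1 14.2 ± 6.49% in TNF cells and 15.8 ± 8.04% in control cells (SD, n = 3 each). The groups overlapped for both shares. Ccnd3 made up 25.4 ± 2.18% in TNF cells and 37.5 ± 9.15% in control cells, without overlap. In every TNF library Ccnd3 thus had a higher level, and a smaller share of the sum, than in any control library.

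Cdk4, the main partner of D-type cyclins in these libraries by level, had 390, 224 and 240 FPKM in TNF replicates 1, 3 and 4, against 295, 343 and 345 FPKM in control replicates 1, 2 and 4. TNF replicate 1 was above every control library and the other TNF libraries were below every one. The log2 difference was −0.25 ± 0.25, with an interval of −0.85 to 0.36 (adjusted p = 0.483). Without TNF replicate 1 it was −0.50 (adjusted p = 0.0326). It lies on the plus strand of chromosome 10, from 127063534 to 127067920, and 19.7% of its exonic bases lie under exons of Tspan31 on the opposite strand.

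Cdk6, the second kinase of D-type cyclins, had 6.43, 7.22 and 9.68 FPKM in TNF replicates 1, 3 and 4, against 7.81, 6.79 and 2.84 FPKM in control replicates 1, 2 and 4. The groups overlapped, and control replicate 4 was the lowest library. The log2 difference was 0.43 ± 0.36, with an interval of −0.42 to 1.29 (adjusted p = 0.378). Cdk4 made up 97.1 ± 1.15% of the FPKM of the 2 kinases in TNF cells and 98.2 ± 0.892% in control cells (SD, n = 3 each). Cdk6 lies on the plus strand of chromosome 5, from 3341485 to 3531008, and 2.63% of its exonic bases lie under exons of another gene.

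How the libraries are scaled decided the calls for Rbl1, Ccnd2 and Ccnd3, but not for Rb1. As deposited, the median log2 difference of all rows was −0.22. Scaling by the median of ratios moved that median to 0.00, and Rbl1, Ccnd2 and Ccnd3 were then called higher. Upper-quartile scaling called the same 3 genes, and quantile normalization called Rbl1 and Ccnd3. Scaling to the horizontal basal cell list moved the median of all rows to −1.31. Under it Rb1, Rbl2 (−1.21, adjusted p = 0.0212) and Cdk4 (−1.48, adjusted p = 0.00544) were called lower, and Rbl1, Ccnd1, Ccnd3 and Cdk6 turned negative. Rb1 was called lower under each of the 4 scalings.

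**Figure D4:**
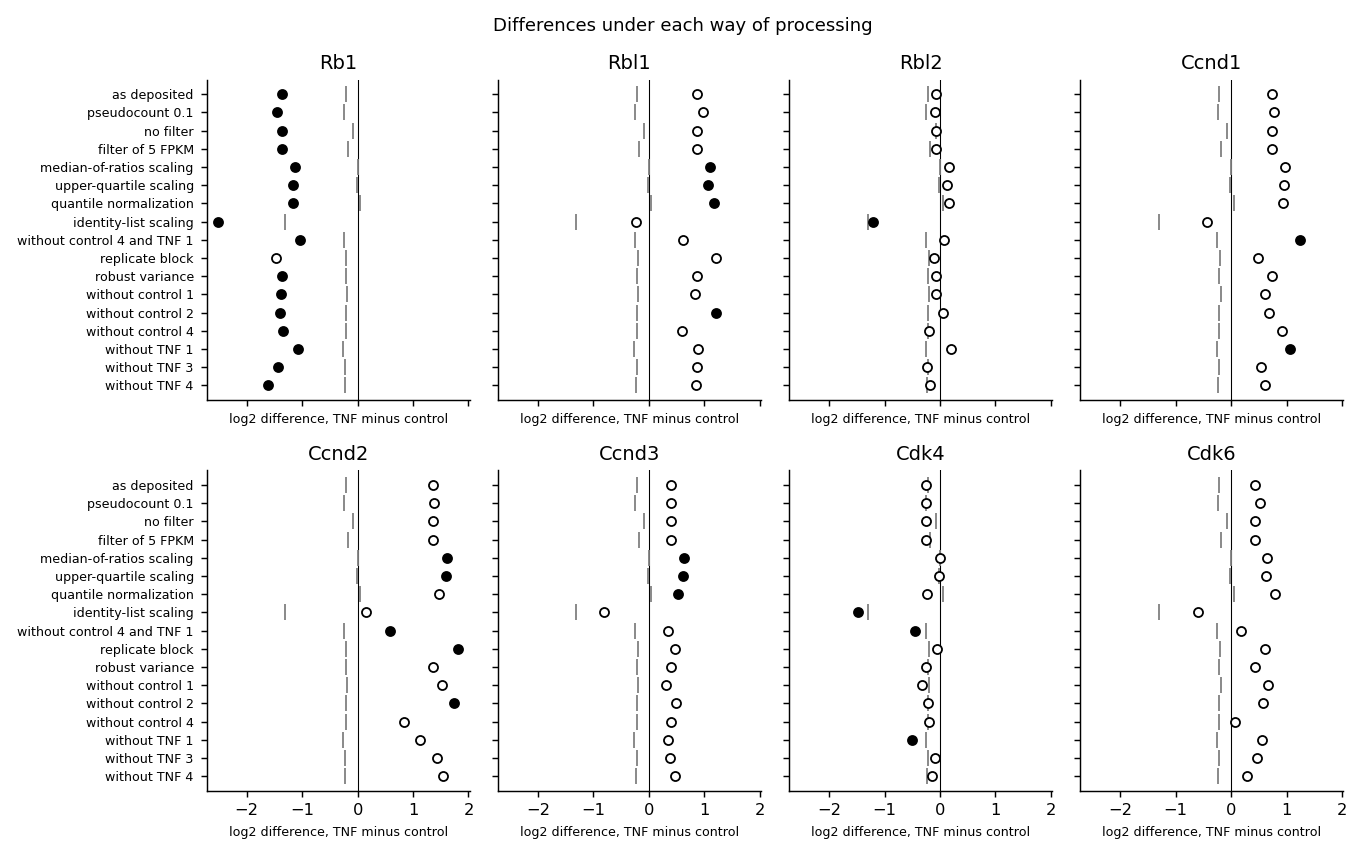
Log2 difference (TNF minus control) of each member under each processing setting, with filled points for an adjusted p below 0.05 and a grey tick for the median of all tested rows in that setting. Rb1 is filled in all settings except the replicate block, while the filled settings of Rbl1, Ccnd1, Ccnd2, Ccnd3, Rbl2 and Cdk4 vary.

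The genes around the members were followed in 7 lists of 78 genes, of which 71 were tested. Of these, 5 rose and 10 fell, against 10.9% and 27.2% of all tested rows, and their median log2 difference was 0.01. The same 10.9% and 27.2% are the background for each list below. Cdt1, Gins2 and Fbxo31 were not analysed here, and E2f8, Ccna1, Cdkn2a and Orc1 did not reach the filter.

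Of 9 tested E2F and DP factors, 1 rose and 2 fell, with a median log2 difference of −0.27. E2f3, an activator of S phase genes, had 5.65, 2.33 and 2.75 FPKM in TNF replicates 1, 3 and 4, against 0.513, 0.841 and 0.388 FPKM in control replicates 1, 2 and 4. All TNF libraries were above all controls, and E2f3 rose by 1.48 ± 0.30 in log2 units (adjusted p = 0.00909). E2f2, an activator too, had 0.404, 0.253 and 0.246 FPKM in TNF replicates 1, 3 and 4, against 2.08, 1.79 and 2.98 FPKM in control replicates 1, 2 and 4. All its TNF libraries were below all controls, and it fell by 1.32 ± 0.19 on the log2 scale (adjusted p = 0.00253). Both calls held with any 1 library left out. Both genes reached the filter only through the group where they are high. With no filter the adjusted p was 0.0264 for E2f3 and 0.00790 for E2f2, and with a filter of 5 FPKM neither was tested. E2f7, a repressor, fell by 0.79 ± 0.25 on the log2 scale (adjusted p = 0.0474). The E2f7 call was lost without control replicate 1 (adjusted p = 0.154), control replicate 2 (0.0898), control replicate 4 (0.0609), TNF replicate 3 (0.129) or TNF replicate 4 (0.171). E2f1 had a log2 difference of −0.42 (adjusted p = 0.329). E2f4, the usual partner of Rbl1 and Rbl2, had 19.9 to 24.5 FPKM in TNF libraries and 15.7 to 23.2 FPKM in control libraries, with a log2 difference of 0.16 (adjusted p = 0.571).

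Of 8 MuvB and Myb genes, 3 fell and none rose, with a median of −0.55. Lin52, the MuvB subunit that Rbl1 and Rbl2 bind, had 13.9, 13.7 and 13.2 FPKM in TNF replicates 1, 3 and 4, against 24.6, 23.8 and 26.4 FPKM in control replicates 1, 2 and 4. It fell by 0.83 ± 0.15 on the log2 scale (adjusted p = 0.00565). A row that merges Foxm1, a transcription factor of G2 and mitosis, with 4933413G19Rik and Nrip2 had 3.58, 2.09 and 2.39 FPKM in TNF replicates 1, 3 and 4, against 14.8, 11.6 and 20.9 FPKM in control replicates 1, 2 and 4. In both rows every TNF library was below every control library. The Foxm1 row fell by 2.17 ± 0.28 on the log2 scale (adjusted p = 0.00174), and which of its 3 genes the reads came from cannot be told. The Lin52 and Foxm1 calls held with any 1 library left out. Mybl1 (A-Myb) fell by 0.53 ± 0.16 on the log2 scale (adjusted p = 0.0396), a call lost without any 1 of the 6 libraries (adjusted p of 0.0677 to 0.179). It reached the filter only through the control libraries, at 1.08 to 1.19 FPKM, against 0.358 to 0.710 FPKM in TNF libraries, and did not pass with no filter (adjusted p = 0.0519).

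Of 11 tested later cyclins and kinases, 1 rose and 1 fell, with a median of 0.04. Cdk2, the kinase that completes pocket protein phosphorylation with cyclin E, had 26.8, 18.3 and 18.0 FPKM in TNF replicates 1, 3 and 4, against 8.51, 11.6 and 9.97 FPKM in control replicates 1, 2 and 4. The groups did not overlap, and Cdk2 rose by 0.98 ± 0.23 in log2 units (adjusted p = 0.0145), a call lost without control replicate 1 (0.88, adjusted p = 0.0585). Ccnh, a subunit of the kinase that activates Cdk4 and Cdk2, fell by 0.64 ± 0.14 on the log2 scale (adjusted p = 0.0140). The Ccnh call was lost without control replicate 1 (adjusted p = 0.0608), TNF replicate 3 (0.0708) or TNF replicate 4 (0.0532). Of the E cyclins, Ccne1 had a log2 difference of 0.66 ± 0.22 (adjusted p = 0.0580) and Ccne2 one of −0.53 ± 0.25 (adjusted p = 0.143). Ccne1 passed without control replicate 4 (adjusted p = 0.0246) or TNF replicate 1 (adjusted p = 0.0477).

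Of 6 tested CDK inhibitors, 2 rose and 1 fell, with a median of 0.05, and all 3 belong to the INK4 proteins, which bind Cdk4 and Cdk6 directly. Cdkn2b (p15) had 5.05, 8.45 and 9.05 FPKM in TNF replicates 1, 3 and 4, against 1.23, 0.774 and 1.50 FPKM in control replicates 1, 2 and 4. Cdkn2c (p18) had 33.6, 23.7 and 19.4 FPKM in TNF replicates 1, 3 and 4, against 9.24, 9.36 and 13.0 FPKM in control replicates 1, 2 and 4. For both genes every TNF library was above every control library. Cdkn2b rose by 1.95 ± 0.27 in log2 units (adjusted p = 0.00221) and Cdkn2c by 1.19 ± 0.25 (adjusted p = 0.0111), and both calls held with any 1 library left out. After scaling to the horizontal basal cell list Cdkn2c was at 0.02 (adjusted p = 0.968). That scaling moved the median of all tested rows to −1.31. Cdkn2d (p19) had 19.8, 17.4 and 17.4 FPKM in TNF replicates 1, 3 and 4, against 31.7, 24.9 and 53.9 FPKM in control replicates 1, 2 and 4. Again the groups did not overlap. Cdkn2d fell by 0.91 ± 0.29 on the log2 scale (adjusted p = 0.0446), and its call was lost without any library other than control replicate 2 (adjusted p of 0.0502 to 0.124). Cdkn2a, the locus of p16, was listed at 0 in all TNF libraries and at no more than 0.0850 FPKM in control libraries.

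Of 19 tested E2F targets of S phase, 1 rose and 1 fell, with a median of 0.33. Mcm6, a subunit of the replicative helicase, rose by 0.68 ± 0.17 in log2 units (adjusted p = 0.0189), while Cdc45, which activates that helicase, fell by 0.87 ± 0.20 (adjusted p = 0.0150). Both calls were lost without control replicate 1 (adjusted p = 0.0676 for Mcm6 and 0.0554 for Cdc45), TNF replicate 3 (0.0598 for Mcm6 and 0.0733 for Cdc45) or TNF replicate 4 (0.0777 for Mcm6 and 0.0579 for Cdc45). The number of these targets that were higher was 6 after median-of-ratios scaling and 7 after quantile normalization. Of all 15037 tested rows, 2342 and 2658 were higher under these 2 settings. After scaling to the horizontal basal cell list, 0 of the 19 targets were higher and 8 were lower, and 10249 of all rows were lower. With each library left out in turn, the number higher ranged from 0 to 4. None of 10 mitotic markers passed in limma, and their median was 0.13. Mki67, the usual proliferation marker, had 1.11, 1.06 and 1.38 FPKM in TNF replicates 1, 3 and 4, against 1.17, 0.914 and 0.969 FPKM in control replicates 1, 2 and 4. The groups overlapped (log2 difference 0.11 ± 0.16, adjusted p = 0.624).

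Of 9 tested genes of cyclin D turnover and Cdk4 folding, 2 fell and none rose, with a median of 0.02. Both are chaperones of Cdk4. Hsp90ab1 fell by 0.66 ± 0.19 on the log2 scale (adjusted p = 0.0319), and Cdc37, which delivers kinases to Hsp90, by 0.51 ± 0.16 (adjusted p = 0.0446). Both calls were lost without any 1 library other than TNF replicate 1, at adjusted p of 0.0549 to 0.127 for Hsp90ab1 and 0.0789 to 0.168 for Cdc37.

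**Figure D5:**
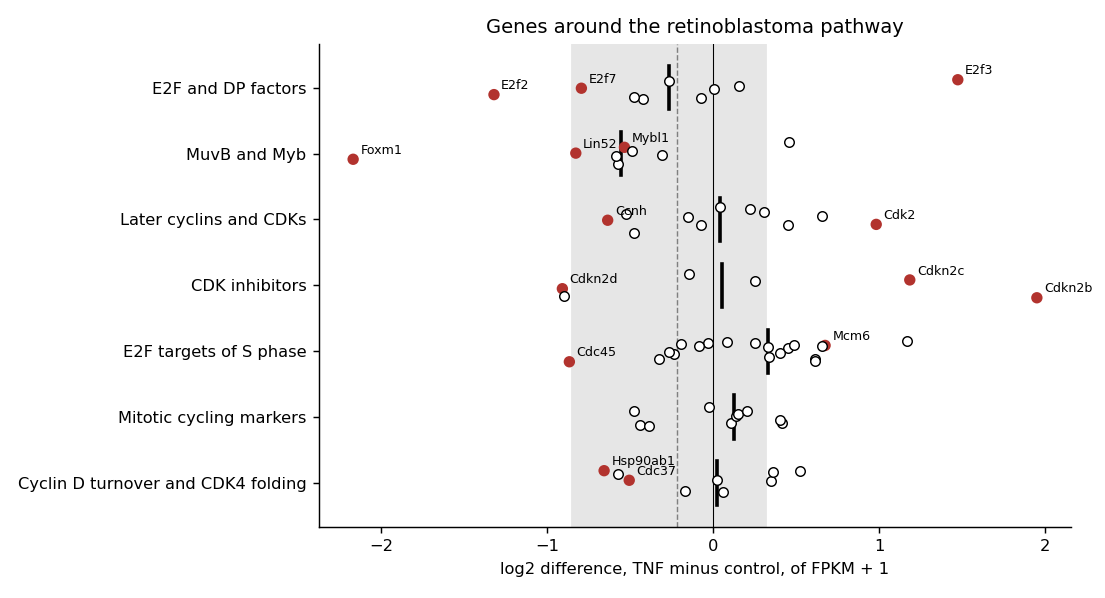
Log2 difference (TNF minus control) of each tested gene in the 7 pathway lists, with red points for an adjusted p below 0.05, open points for the others and a black bar for each list's median; the grey band spans the middle 50% of all 15037 tested rows and the dashed line is their median, −0.22. The Foxm1 row is lowest at −2.17 and Cdkn2b highest at 1.95.

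The rows whose profiles over the 6 libraries were nearest to each member were found by the root mean square difference of centred log2(FPKM + 1) values, among 8445 or 8446 rows of single named genes. The nearest to Rb1 were Ap1s2 (0.112) and Ivns1abp (0.118), and 11 rows lay within 0.2. For Rbl1 they were Tdrd7 (0.0979) and Optn (0.108), for Ccnd1 Edem1 (0.0963) and Pnp (0.152), and for Ccnd2 Slc25a13 (0.0709) and Trim29 (0.132). Cdk6 was nearest to Pign (0.0887) and Slc25a36 (0.123). Cdk4, Ccnd3 and Rbl2 had flatter profiles with many neighbours: 802, 477 and 201 rows lay within 0.2, and the nearest were Mrpl4 (0.0477) and Clpp (0.0637) for Cdk4, Ehd1 (0.0623) and Oma1 (0.0716) for Ccnd3, and Acbd3 (0.0572) and BC065403 (0.0650) for Rbl2.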

How the data were processed

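RNA from the sorted cells was amplified (SMARTer v4) and made into Nextera libraries, per the labels' protocols. The submitters' processing notes name Cuffdiff 2.2.1, TopHat2 2.1.1, bcl2fastq, FastQC 0.10.1 and mm10, without roles; no source used here states settings, annotation or strand. The authors deposited a table of FPKM values for 3 TNF and 3 control libraries, and no counts. Depth in fragments is not given, so no counting interval is printed.

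Values were used unscaled. Rows that reached 1 FPKM in 3 or more libraries were tested on log2(FPKM + 1) with limma 3.58.1 (R 4.3.3, intensity trend, no covariate, two-sided), adjusted by Benjamini-Hochberg over 15037 rows at a threshold of 0.05. Fold changes on this scale understate those of low genes. The fit was tested on simulated data. With a library left out, the filter asked for 2 libraries. Alternatives were another pseudocount, other filters, 4 scalings, a robust variance, omitted libraries and a replicate block.

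Members, lists and tests were chosen with earlier results of these data known. Where several rows named a member, the row of highest mean FPKM stood for it. Named besides the members were, of each pathway list, the 3 called genes with the smallest p, the genes E2f1, E2f4, Ccne1, Ccne2, Cdk2 and Mki67, and the 2 nearest profiles per member. Cdkn2a, Trp63, Dcx, Neurog1, Kdr, Aktip and Oraov1 were named after their values were seen. Marker lists of lymphocytes, myeloid, sustentacular, globose basal and ciliated cells are given with the other observations.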

Additional observations from a re-analysis of the deposited data

How the results depend on the processing

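Rb1 was called lower under every alternative except the replicate block. The replicate numbers 1 and 4 occur in both groups, but nothing says that they pair the libraries: deviations from the group means correlated at −0.06 for number 1 and −0.09 for number 4. With the replicate block, Rb1 was at −1.46 (adjusted p = 0.0615), Ccnd2 was called (1.81, adjusted p = 0.0122), so 1 member was higher and 0 were lower, 744 rows were higher and 2246 lower, and 3 pathway genes were higher and 3 lower. Of the pathway genes called and named, E2f2, E2f3, Foxm1 and Cdkn2b passed with the block (adjusted p of 0.0190 to 0.0415). Cdkn2c (1.15, adjusted p = 0.147), Cdk2 (1.17, 0.131), Lin52 (−0.87, 0.229), Cdkn2d (−1.12, 0.118), Mcm6, Cdc45, E2f7, Mybl1, Ccnh, Hsp90ab1 and Cdc37 (0.262 to 0.571) did not. Rows called higher numbered 2658 under quantile normalization, 358 scaled to the basal cell list and 3101 without control replicate 4 and TNF replicate 1; rows called lower numbered 2655 with a filter of 5 FPKM and 10249 scaled to the basal cell list. Median-of-ratios scaling gave 2342 higher and 3189 lower rows, and upper-quartile scaling 2185 and 3235. Members called higher numbered 3 under median-of-ratios, 3 under upper-quartile, 2 under quantile scaling and 2 without the 2 libraries named; members called lower numbered 3 scaled to the basal cell list and 2 without those libraries. Pathway genes called higher were 14, 13, 15, 2 and 13 under median-of-ratios, upper-quartile, quantile and basal cell list scaling and without those libraries; those called lower were 5 with no filter, 4 under each of the first 3 scalings and 42 scaled to the basal cell list. With each library left out in turn, rows higher ranged from 920 to 2460, rows lower from 2874 to 5176, members higher from 0 to 2, members lower from 1 to 2, pathway genes higher from 3 to 10 and lower from 3 to 11. The cause of these shifts was not tested.

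Signs turned as follows. Scaled to the basal cell list, the second Rb1 row was at −0.74, the third at −0.48, Rbl1 at −0.22, Ccnd1 at −0.44, Ccnd3 at −0.81, Cdk6 at −0.61, Ccne1 at −0.16, Cdk2 at −0.17, E2f4 at −1.02, Mcm6 at −0.52 and Mki67 at −0.53. The second Rb1 row was at −0.049 without control replicate 4 and TNF replicate 1, and ranged from −0.03 (without control replicate 4) to 0.50 with each library left out. Rbl2 was at 0.15 under median-of-ratios, 0.13 under upper-quartile and 0.15 under quantile scaling, 0.07 without control replicate 4 and TNF replicate 1, 0.05 without control replicate 2 and 0.20 without TNF replicate 1, and ranged from −0.24 to 0.20 with each library left out. Cdk4 was at 8.4e-05 under median-of-ratios scaling. Under quantile normalization E2f1 was at 0.35 and Mybl1 at 0.32, and E2f2 lost its call (−0.55, adjusted p = 0.0706). The 3 libraries of each group limit the precision: the interval of Ccnd2 spans 0.21 to 2.52 on the log2 scale.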

Other observations

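Markers of other cell types not named beside a member also differed between the groups. Over all tested rows, 10.9% rose and 27.2% fell. The 8 myeloid markers summed to 189 to 567 FPKM in TNF libraries and 300 to 1540 FPKM in control libraries, and 4 of 8 fell. The 8 lymphocyte markers summed to 6.43 to 8.43 FPKM in TNF libraries and 34.7 to 78.6 FPKM in control libraries. Of 6 tested, 5 fell, but Cd3e, Cd3g, Cd79a and Ms4a1 reached the filter only through the control libraries. Of 5 tested sustentacular markers 4 fell (127 to 493 FPKM summed in TNF libraries, 705 to 1261 FPKM in control libraries). Of 5 tested ciliated cell markers 1 rose and 3 fell (91.0 to 134 FPKM in TNF libraries, 133 to 272 FPKM in control libraries). Of 7 tested globose basal cell markers 2 rose and 2 fell, with sums of 161 to 267 FPKM in TNF libraries and 102 to 126 FPKM in control libraries; Neurog1 was at 0 in TNF replicates 3 and 4. Their part in the members' values was not tested.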
